A study of Caenorhabditis elegans with 14 samples.

Results

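Factors that make mature piRNAs were set here against PRG-1, the protein that carries them, in small RNA libraries of Caenorhabditis elegans. The libraries of tofu-6(ust94), pics-1(tm2417) and erh-2(ust101) worms, called the maturation mutants below, formed one side with 1 library each and in the order just given wherever 3 values stand together, and the single library of prg-1(n4503) worms formed the other. These 4 were all the untreated libraries of those strains, picked by genotype and preparation from the 14 libraries of the series. Beside them stood an untreated tost-1(ust103) library and an untreated library of the control strain, whose levels are given without a test. Every library came from whole, synchronised late young adults kept at 20 °C on OP50 bacteria, and from RNA of 17 to 30 nucleotides. An untreated library was ligated directly, which takes RNAs with a 5′ monophosphate, while the same 4 strains and control were also sequenced after TDP2, an enzyme that removes 5′ caps. The sources used here do not say whether both preparations of a strain used the same RNA, or whether any libraries came from separate cultures. In whole worms fewer cells of a type and less RNA per cell cannot be told apart.

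piRNAs are germline small RNAs that guide Argonaute proteins of the Piwi family to transcripts. In C. elegans each is transcribed as a short capped precursor. TOFU-6, ERH-2 and PICS-1, which the annotation calls PID-3, are subunits of the PICS complex, which binds the precursors and is needed for their trimming at the 5′ end; TOST-1 joins the same complex in its role in chromosome segregation. The mature piRNA is bound by PRG-1, and transcripts that PRG-1 recognises serve as templates for RNA-dependent RNA polymerases, whose antisense products load onto further Argonautes of the WAGO group and silence the gene. The comparison therefore places a block before the mature piRNA beside the loss of its carrier.

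Assigned reads came to 11777844, 10555247 and 8363650 in the maturation mutants, against 10151842 in prg-1. Structural RNA here means rRNA, tRNA, snRNA and snoRNA, plus antisense reads of ncRNA genes that lie opposite such genes. It took 65.6%, 70.24% and 72.36% of assigned reads in the maturation mutants and 82.81% in prg-1. The libraries thus differed in what was left for other RNAs. Antisense reads of ncRNA genes took 25.36%, 25.35% and 30.27% in the maturation mutants and 38.22% in prg-1, close to the tRNA share in each. Whether the same reads were counted for both was not tested. Levels of single features are given as CPM, the usual per-library scaling of counts, on library sizes adjusted by the trimmed mean of M-values (TMM), and class shares as percent of assigned reads. The test was edgeR's quasi-likelihood test with Benjamini-Hochberg adjustment at 0.05 over all 11649 features tested, a feature being a gene or piRNA on 1 strand. Its spread came from 3 different genotypes with 2 residual degrees of freedom, and the lone prg-1 library was assumed to vary like them. P-values therefore measure the spread between these libraries, which may be technical. In all, 507 features (4.35%) were higher and 905 (7.77%) lower in the maturation mutants than in prg-1, and the median log2 fold change over all features tested was 0.05. The split depended on the scaling: when libraries were set to equal assigned reads the median became 0.97 and 94.0% of the calls were higher, against 35.9% with TMM.

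The mutated genes all kept sense reads in their own strains. Reads sense to tofu-6 numbered 18, 93 and 125 in the maturation mutants and 56 in prg-1, and those sense to pid-3 numbered 162, 16 and 99 against 52. The erh-2 gene had 48, 35 and 14 reads against 18 in prg-1. In each of these 3 cases the strain named after the gene had the lowest count of the 4. The prg-1 gene had 553, 511 and 384 sense reads in the maturation mutants and 216 in prg-1, a log2 fold change of 0.23 ± 0.18 (SE; edgeR, adjusted p = 0.434). The deposited counts are per gene, so they do not show whether a deleted part was read.

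Mature piRNAs were strongly depleted in prg-1 and partly retained in the maturation mutants. They made up 0.281%, 0.120% and 0.229% of assigned reads in the maturation mutants and 0.00237% in prg-1, which held 241 such reads against 33048, 12708 and 19117. The mean of the maturation mutants, 0.21% ± 0.0817 (SD, n = 3), was 88.4 times the prg-1 share. Each mutant alone stood above prg-1, tofu-6 by 118 times (exact 95% counting interval 104 to 135), pics-1 by 50.7 times (44.6 to 57.8) and erh-2 by 96.3 times (84.8 to 110). The tost-1 library had 0.597% and control 0.403%, so the 3 maturation mutants lay between prg-1 and control. Per microRNA read the ratios to prg-1 were 52.9, 29.6 and 64.1. How much was retained relative to control depended on the scaling. The ratios to control were 0.696, 0.299 and 0.567 per assigned read. They were 0.207, 0.116 and 0.25 per microRNA read, and 0.321, 0.159 and 0.326 per read outside structural RNA. With 3 libraries against 1, an exact permutation test of a share cannot go below 0.25 one-sided, or 0.5 when that is doubled for a two-sided test, so no p-value is given for class shares.

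**Figure D1:**
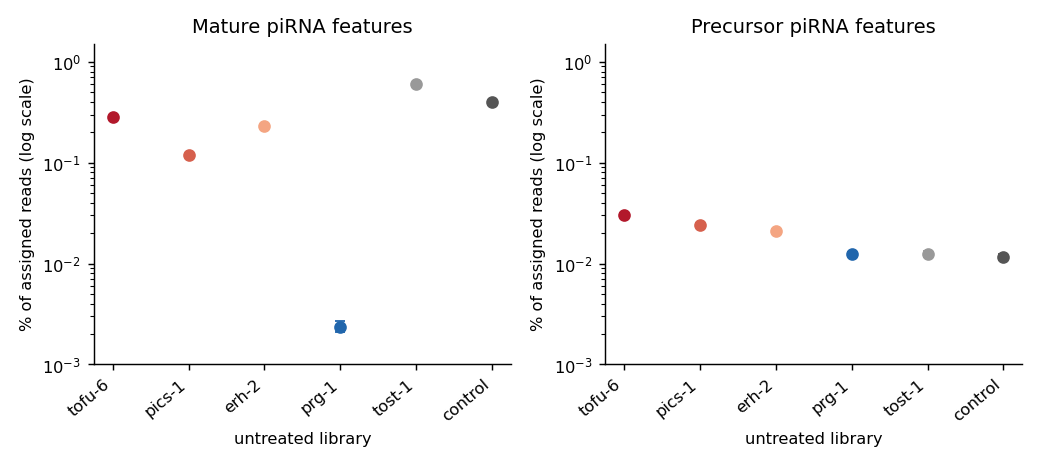
Share of assigned reads (%, log axis) on mature piRNA features (left) and precursor piRNA features (right) in each of the 6 untreated libraries, 1 point per library. Mature piRNAs stand at 0.120% to 0.281% in the maturation mutants and 0.00237% in prg-1; precursors at 0.0210% to 0.0304% in the maturation mutants and 0.0125% in prg-1.

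The difference ran across the whole repertoire of piRNAs. Of 7221 mature features listed, 3216, 2112 and 2306 had at least 1 read in the maturation mutants, against 157 in prg-1, and 121 of those 157 rested on a single read. At least 10 reads fell on 567, 244 and 328 features in the maturation mutants and on 0 in prg-1, whose most-read feature had 8 reads. The most-read feature had 1268, 588 and 958 reads in the maturation mutants. A fixed set of 521 features that had at least 10 reads in the control library gave the same order. Per assigned read its median ratio to control was 0.555, 0.241 and 0.448 in the maturation mutants and 0 in prg-1. Of these features 2, 15 and 3 had no read in the maturation mutants, against 457 in prg-1. Per assigned read the maturation mutants were not low at every locus, since 101, 5 and 48 of the 521 stood above control, against 0 in prg-1. Both comparisons with control rest on that scaling.

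The 3 maturation mutants also resembled each other in which piRNAs remained. Over the 521 features the Spearman correlation of reads was 0.81 to 0.85 between pairs of maturation mutants, 0.73 to 0.74 between each of them and control, and 0.19 to 0.24 between each of them and prg-1; these are descriptions across loci, and nearly all prg-1 values were 0. The 521 features held 73.6%, 74% and 77.9% of mature reads in the maturation mutants and 37.3% in prg-1. The reads left in prg-1 thus fell more often on loci that are rare in control. In prg-1, 9 features had 5 or more reads, and the 3 described next were singled out after their values were seen. The feature mature_piR-cel-15877 had 3, 3 and 2 reads in the maturation mutants against 7 in prg-1, and mature_piR-cel-15879 had 13, 8 and 2 against 7. The feature mature_piR-cel-25087, with most reads in prg-1, had 28, 18 and 19 against 8.

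The 6 mature piRNAs with most reads over the 6 untreated libraries show the gap locus by locus. The first, mature_piR-cel-4375, had 863, 588 and 958 reads in the maturation mutants, 4 in prg-1, 1674 in tost-1 and 933 in control. Its level was 70.6 ± 31.9 CPM in the maturation mutants (SD, n = 3) and 0.635 CPM in prg-1, a log2 fold change of 6.77 ± 0.80 (SE; edgeR, adjusted p = 0.00226). All 3 maturation mutants lay far above prg-1 and below control, which had 181 CPM. Next, mature_piR-cel-1793 had 1268, 316 and 730 reads in the maturation mutants against 3 in prg-1, with 606 in tost-1; the pooled ratio to prg-1 was 134 (counting interval 45.7 to 649; edgeR, adjusted p = 0.00836). Here tofu-6 (87.1 CPM) and erh-2 (81.2 CPM) stood above control (78.0 CPM), while pics-1 (24.7 CPM) stood below it. For mature_piR-cel-5504 the counts were 299, 298 and 497 against 5 in prg-1, with 1129 in tost-1 and 871 in control (33 ± 19.3 and 0.793 CPM; log2 fold change 5.34 ± 0.96, edgeR, adjusted p = 0.0111).

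The other 3 followed the same order. Reads of mature_piR-cel-3421 numbered 617, 291 and 474 in the maturation mutants and 2 in prg-1, a pooled ratio of 120 (33.1 to 991; edgeR, adjusted p = 0.0029). Those of mature_piR-cel-6009 numbered 345, 149 and 259 against 1 in prg-1, a ratio of 131 (23.4 to 5170; edgeR, adjusted p = 0.00592). With 615, 156 and 288 reads against 0 in prg-1, mature_piR-cel-2290 was at least 60.6-fold higher in the maturation mutants, taking 3 reads as the floor of the prg-1 library (edgeR, adjusted p = 0.0109). In all 6 piRNAs the 3 maturation mutants lay above prg-1, as they did at 4618 (39.6%) of all features tested, while all 3 lay below it at 4153 (35.7%). Over the whole class 372 mature features passed the filter of 10 reads in a library and 30 over the 4; 312 of these had 0 reads in prg-1 and so passed only through the maturation mutants. Of the 372, 145 were called higher and 0 lower (0 lower also at an unadjusted p under 0.05 and by DESeq2), and nothing is read from that count; 1 further feature was tested on its antisense strand.

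Reads on precursor piRNA features differed far less than those on mature ones. Direct ligation takes RNAs with a 5′ monophosphate, so these untreated reads do not measure the capped precursors themselves. Reads on precursor features took 0.0304%, 0.0242% and 0.0210% of assigned reads in the maturation mutants and 0.0125% in prg-1, with 0.0123% in tost-1 and 0.0116% in control. The ratios to prg-1 were 2.44 (counting interval 2.29 to 2.6) in tofu-6, 1.94 in pics-1 and 1.68 in erh-2. This direction rests on the scaling, because on the TMM scale the summed precursor levels were 246, 200 and 195 CPM in the maturation mutants and 201 CPM in prg-1. The ratio of precursor to mature reads needs no scaling between libraries: it was 0.108, 0.201 and 0.0917 in the maturation mutants, 5.25 in prg-1, 0.0207 in tost-1 and 0.0287 in control. There were thus fewer precursor than mature reads in each maturation mutant and more in prg-1, the mean of the maturation mutants being 0.0255 times the prg-1 value. Both differed from control in the direction of more precursor per mature read.

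A few loci carried most precursor reads: the 10 most-read features held 72.9%, 74.8% and 71% of them in the maturation mutants and 76.5% in prg-1. Whether genes that overlap the precursors add to these reads was not tested. Of 4675 listed, 27 were tested, 4 were higher and 1 lower (DESeq2 called 0 in either direction). Over all features tested 4.35% were higher and 7.77% lower. The ones given here were picked after their values were seen. The feature pre_piR-cel-19604 had 543, 465 and 279 reads in the maturation mutants and 123 in prg-1 (log2 fold change 0.84 ± 0.20; edgeR, adjusted p = 0.0301). The feature pre_piR-cel-15877 had 5, 5 and 7 reads against 19 in prg-1 (−2.62 ± 0.65, adjusted p = 0.0381), and its mature partner was among those that kept reads in prg-1. The most-read precursor, pre_piR-cel-1430, had 1214, 900 and 578 reads against 513 (−0.16 ± 0.21, adjusted p = 0.645). Without tofu-6 the calls of pre_piR-cel-19604 and pre_piR-cel-15877 were lost (adjusted p = 0.0834 and 0.0915). Of the 6 piRNAs above, 3 have a precursor feature in the tables, and these held 0 to 3 reads in the maturation mutants and 0 in prg-1.

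After TDP2 the contrast in mature reads was smaller. Mature piRNAs took 0.0427%, 0.0293% and 0.0380% of assigned reads in the maturation mutants, 0.0259% in prg-1 and 0.171% in control. Reads on precursor features took 0.146%, 0.319% and 0.217% in the maturation mutants, 0.181% in prg-1 and 0.177% in control. Precursor reads per mature read were 3.41, 10.9 and 5.72 in the maturation mutants, 6.99 in prg-1 and 1.03 in control. The prg-1 value lay inside the range of the maturation mutants, which in the untreated libraries it did not.

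Antisense small RNAs at protein-coding genes, the class that holds the products of RNA-dependent RNA polymerases, differed in both directions. Of 1454 such features tested, 237 were higher and 145 lower in the maturation mutants than in prg-1. The 237 together had 1816, 1632 and 1179 CPM in the maturation mutants, 150.9 CPM in prg-1, 705.5 in tost-1 and 660.0 in control. The 145 had 427.7, 314.5 and 344.1 CPM in the maturation mutants, 1716 in prg-1, 519.2 in tost-1 and 694.8 in control. These sums were chosen by the test and describe it. Of the 237, 112 had 0 reads in prg-1 and passed the filter through the maturation mutants. Summed over all antisense reads of protein-coding genes, the shares were 0.750%, 0.593% and 0.441% in the maturation mutants and 0.432% in prg-1. After TDP2 the shares were 4.92%, 28.2% and 7.31% in the maturation mutants, 5.47% in prg-1 and 15.2% in control. The untreated calls thus rest on a class with a much smaller share of reads than after TDP2. Because direct ligation takes RNAs with a 5′ monophosphate, untreated reads do not measure antisense RNAs with other 5′ ends. Genes on the X chromosome made up 12.7% of the higher and 2.07% of the lower features, against 6.19% of those tested.

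The TDP2 libraries of the same strains were not used for these calls. In them all 3 maturation mutants lay above prg-1 at 236 of the 237 features (99.6%), against 618 of all 1454 (42.5%). At the 145 lower features all 3 lay below prg-1 at 80 (55.2%), against 110 of 1454 (7.57%). In RPM, which scales counts to the assigned reads, the 237 summed to 20380, 116000 and 30900 in the maturation mutants, 950.8 in prg-1 and 46950 in control. The pics-1 library was the highest of the 5 and prg-1 the lowest. Over all 1454 features pics-1 was also the highest (211600 RPM) and prg-1 the lowest (30020 RPM), so that ranking was not particular to the 237. Structural RNA took 49.33% of assigned reads in pics-1 and 82.15% in prg-1 after TDP2, and RPM does not adjust for this.

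Genes regulated by WAGO-bound antisense RNAs were listed by name: 9 of 11 were found, and all 9 were tested on the antisense strand. Antisense reads rose at 5, fell at 0 (also 0 unadjusted and by DESeq2) and the median log2 fold change was 2.87, or 2.52 with the gene at 0 in prg-1 put at its bound, against 0.05 over all features. Between 5 and 7 were called under the other scalings. Of all 1454 antisense features of protein-coding genes tested, 237 rose with TMM. The gene bath-45 on chromosome II (13123020 to 13125189, WBcel235), which encodes a protein with BTB and MATH domains, had 620, 580 and 221 antisense reads in the maturation mutants, 2 in prg-1, 105 in tost-1 and 56 in control. Its level was 37.5 ± 11.3 CPM in the maturation mutants and 0.317 CPM in prg-1; the pooled ratio was 123 (34.1 to 1020; edgeR, adjusted p = 0.0014). All 3 maturation mutants stood above control, and prg-1 stood below it.

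Sense reads of bath-45 went the other way, with 9, 5 and 2 in the maturation mutants, 28 in prg-1, 4 in tost-1 and 2 in control (log2 fold change −3.33 ± 0.60; edgeR, adjusted p = 0.0112). After TDP2 its antisense level was 506, 3360 and 504 RPM in the maturation mutants, 2.42 RPM in prg-1 and 1250 RPM in control, so the gap to prg-1 was present in both preparations. K02E2.6 on chromosome V (20380561 to 20382036) had 477, 356 and 170 antisense reads against 23 in prg-1, with 91 in tost-1 and 196 in control (2.87 ± 0.40, adjusted p = 0.00444). The others that rose were fbxb-97, an F-box gene, with 155, 66 and 61 reads against 3; W04B5.2, with 199, 115 and 65 against 11; and Y37E11B.2, with 292, 226 and 103 against 26. Their adjusted p-values were 0.0128, 0.0182 and 0.0155.

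The remaining 4 were not called. The gene bath-13 had 51, 26 and 19 antisense reads in the maturation mutants and 2 in prg-1 (adjusted p = 0.0514), and xol-1, the switch gene of sex determination, had 31, 6 and 19 against 0 (adjusted p = 0.101). C38D9.2 had 101, 6 and 24 against 21, with the prg-1 library inside the range of the maturation mutants. F55C9.3 had 46, 28 and 24 reads against 28 in prg-1 and 191 in control, so all 4 mutants held fewer antisense reads there than control. Summed over the 9 genes, antisense levels were 135, 110 and 78.5 CPM in the maturation mutants, 18.4 in prg-1, 55.8 in tost-1 and 136 in control. With TDP2 the sums were 1260, 5410 and 1330 RPM against 94.6 in prg-1 and 3020 in control.

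Genes that feed endogenous small RNAs through the Argonaute ERGO-1, several of which are also on the WAGO list, showed the same direction. Of 20 listed, 13 were found and 12 tested on the antisense strand. Of these 5 rose and 0 fell, against 237 risers among all 1454 antisense features of protein-coding genes tested. All 12 had every maturation mutant above prg-1 (39.6% of all features did), and the median was 1.92 (1.82 with the gene at 0 in prg-1 at its bound). E01G4.5 had 263, 108 and 81 antisense reads against 4 in prg-1 and 104 in control (4.21 ± 0.79, adjusted p = 0.0127). Its sense reads fell to 33, 19 and 27 in the maturation mutants, against 53 in prg-1 (−1.92 ± 0.39, adjusted p = 0.0182), a call lost with equal assigned reads (adjusted p = 0.0658). C44B11.6, with most antisense reads on the list, had 1520, 1149 and 618 reads against 264 in prg-1 (1.07 ± 0.27, adjusted p = 0.0385); the call was lost without the tofu-6 library (adjusted p = 0.0969) and when scaled to microRNA reads (0.0921).

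Sense reads moved against antisense reads at a part of the other genes with higher antisense reads too. Of the 237 genes with higher antisense reads, 97 had sense reads enough to be tested. Of these 0 rose (3 at an unadjusted p under 0.05, 0 by DESeq2) and 16 fell (9 by DESeq2). The median log2 fold change was −0.57. Some of the 16 passed the filter only through prg-1, such as bath-45 and Y79H2A.4, with 4, 0 and 1 sense reads against 56. Such features can be called lower but hardly higher, so the count of falls is a description. Among all 985 genes tested on both strands 18 rose, 38 fell and the median was 0.16. At the 145 genes with lower antisense reads the sense strand moved in both directions. There 55 were tested on the sense strand, 3 rose, 6 fell and the median was 0.21. Besides bath-45 and E01G4.5 the 16 included rnh-1.3, an RNase H gene, with 8, 2 and 10 sense reads in the maturation mutants against 73 in prg-1. They also included the linker histone gene his-24, with 37, 15 and 16 against 39, and its antisense reads numbered 222, 146 and 48 against 5 (3.76 ± 0.82, adjusted p = 0.0239). The his-24 antisense call was lost with a stricter filter (adjusted p = 0.051), and its sense call (0.0444) with DESeq2 (0.112), that filter (0.0619), equal assigned reads (0.199) and without erh-2 (0.0562). These examples were chosen after their values were seen.

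Several antisense features that were called higher had no read in prg-1, so that their fold is only a lower bound. Antisense reads of linc-63, a long intergenic noncoding RNA on chromosome I (3870642 to 3871267), numbered 264, 216 and 137 in the maturation mutants, 0 in prg-1, 99 in tost-1 and 36 in control. This was at least 35.2-fold higher in the maturation mutants than the floor of 3 reads in prg-1 (edgeR, adjusted p = 0.000199). The values after TDP2 were 138, 316 and 175 RPM in the maturation mutants, 1.04 RPM in prg-1 and 211 RPM in control. Among protein-coding genes, R04E5.9 had 171, 214 and 51 antisense reads against 0 (at least 23.9-fold), Y38H6C.10 133, 172 and 87 (at least 22.6-fold) and C30G12.1 153, 139 and 68 (at least 20.3-fold). The peroxidase-domain gene pxd-1 had 162, 105 and 58 (at least 18.1-fold) and jmjc-1, a jumonji-domain gene that overlaps cah-6 on the other strand, 105, 125 and 64 (at least 16.9-fold). Control held some antisense reads at all of these genes, and prg-1 was the one untreated library without any.

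Antisense features of protein-coding genes rose at 237 and fell at 145 of 1454, and 4.35% of all features rose and 7.77% fell. Of 26 long intergenic RNA features tested on the antisense strand, 5 rose and 1 fell. The rises included linc-29, with 752, 512 and 260 reads in the maturation mutants, 9 in prg-1 and 61 in control (4.81 ± 0.50, adjusted p = 0.00141), and linc-22, with 1181, 846 and 248 against 48 (2.94 ± 0.63, adjusted p = 0.0215). The fall was at linc-66, with 3, 0 and 1 reads against 59 in prg-1; the pooled ratio to prg-1 was 0.0118 (0.0031 to 0.0317).

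Sense reads gave a second set of high features in the maturation mutants: the inducible heat shock genes. All 13 members of the list were found and tested. Of these 9 rose, as did 4.35% of all features, and 0 fell. The median log2 fold change was 6.00, or 5.6 with genes at 0 in prg-1 at their bound. Several of the 9 had few or no reads in prg-1 (2 had 0) and passed the filter through the maturation mutants. Summed over all 13 genes, levels were 1180, 1160 and 1400 CPM in the maturation mutants, 643 in prg-1, 750 in tost-1 and 665 in control. The same 9 were called with TMM, microRNA, DESeq2 size factor and non-structural scaling. The gene hsp-70 on chromosome I (9320325 to 9322519), a stress-induced chaperone gene that overlaps uggt-2 on the other strand, had 340, 268 and 303 sense reads in the maturation mutants and 0 in prg-1, tost-1 and control. This was at least 54.6-fold higher than the floor in prg-1 (edgeR, adjusted p = 0.000714). The maturation mutants thus stood apart from all 3 other untreated libraries.

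The neighbouring Hsp70-family genes F44E5.4 and F44E5.5 on chromosome II had the most reads. F44E5.4 (11757107 to 11759311) had 1873, 1411 and 1502 reads in the maturation mutants, 11 in prg-1, 49 in tost-1 and 13 in control. Its level was 135 ± 29.0 CPM against 1.74 CPM in prg-1 (6.27 ± 0.43, adjusted p = 0.000186), and F44E5.5 gave 5.6 ± 0.40. The 2 are near-identical copies, so reads may have been split or counted for both. The small heat shock genes, whose proteins hold unfolded proteins in solution, moved alike: hsp-16.2 had 161, 127 and 188 reads against 0 in prg-1 (at least 29.3-fold; adjusted p = 0.00514), and hsp-16.41 had 241, 152 and 225 against 1, a pooled ratio of 107 (19.2 to 4240).

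The 2 genes annotated as hsp-16.1 gave 330, 247 and 238 reads against 2 in prg-1 (T27E4.8) and 310, 253 and 228 against 1 (T27E4.2), again with near-identical sequences. The 4 members not called were the chaperones that are made without stress or in the endoplasmic reticulum: hsp-1 (log2 fold change 0.47, adjusted p = 0.198), hsp-90 (0.51, 0.165), hsp-3 (−0.37, 0.221) and hsp-4 (0.67, 0.103). Under scaling to all assigned reads those 4 were called higher too. After TDP2 the difference was present at hsp-70, with 7.83, 2.40 and 14.4 RPM in the maturation mutants and 0 in prg-1 and control, and at F44E5.4, with 27.1, 13.7 and 114 RPM against 1.38 in prg-1 and 2.47 in control.

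Sense features outside that list with high fitted folds were F56A8.9 on chromosome III and nhr-241, a nuclear hormone receptor gene on chromosome V. F56A8.9 had 1464, 729 and 231 reads in the maturation mutants, 0 in prg-1, 291 in tost-1 and 0 in control (at least 128-fold; edgeR, adjusted p = 0.00731). For nhr-241 there were 194, 130 and 61 reads against 0 in prg-1, with 76 in tost-1 and 0 in control (at least 21.2-fold; adjusted p = 0.00362). Both genes had reads in all 4 strains with a mutated PICS subunit and none in prg-1 or control. After TDP2 this did not hold: F56A8.9 had 19.3, 65.5 and 1.34 RPM in the maturation mutants, 1.85 in prg-1 and 32.4 in control, and nhr-241 6.74, 19.9 and 0.445 against 0.692 and 9.99.

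Replication-dependent histone genes, which package newly copied DNA, were lower as a group. Of 65 found, 64 were tested, 61 fell, 0 rose and the median log2 fold change was −3.38, while 7.77% of all features tested fell and 4.35% rose. Under each of the other scalings 60 or 61 fell. The copy his-47 (B0035.7, chromosome IV from 11324056 to 11324439) had 74, 72 and 70 sense reads in the maturation mutants, 477 in prg-1, 51 in tost-1 and 419 in control. Its level was 6.17 ± 1.43 CPM in the maturation mutants and 75.7 CPM in prg-1 (−3.64 ± 0.21; edgeR, adjusted p = 0.000108). Histone genes are near-identical copies, so a single copy is uncertain, and the sum over the list is the firmer value: it was 133, 143 and 164 CPM in the maturation mutants, 1470 in prg-1, 189 in tost-1 and 1830 in control. The libraries fell into a low set of 4 and a high pair, with prg-1 beside control and tost-1 beside the maturation mutants. With TDP2 the sums were 303, 557 and 610 RPM against 1990 in prg-1 and 3970 in control. Of 12 variant and linker histone genes tested, which are made outside DNA replication as well, 2 fell (his-24 and his-69) and 0 rose. Under scaling to all assigned reads 6 rose and 1 fell. With so few genes, and 7.77% of all features lower, nothing is read from those 2 falls.

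Cuticle and sperm genes were also lower in the maturation mutants and higher in prg-1. Cuticle genes other than those named col had 22 members found and 11 tested, of which 9 fell, against 7.77% of all features tested. Summed over all members they had 11.3, 9.61 and 5.67 CPM in the maturation mutants, 93.0 in prg-1, 11 in tost-1 and 83.2 in control. The cuticle collagen dpy-5 had 3, 2 and 0 reads against 76 in prg-1 (pooled ratio 0.0114, 0.0036 to 0.0278; adjusted p = 0.000605), and sqt-3 had 30, 25 and 14 against 65 (−2.45 ± 0.31, adjusted p = 0.0029). Many of these genes passed the filter through prg-1, so the sums over all members are the value to read. The 156 genes named col followed another order: their sums were 1630, 1700 and 1130 CPM in the maturation mutants, 2180 in prg-1, 853 in tost-1 and 1210 in control, so that control lay below tofu-6 and pics-1. Of the 65 tested, 30 fell and 0 rose, with a median of −1.25; under scaling to all assigned reads 25 fell and 5 rose.

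Major sperm protein genes, which supply the motor of crawling sperm, had 31 members found and 7 tested, all of which passed mainly through prg-1 and fell. Summed over the 31 genes they had 6.73, 2.27 and 0.890 CPM in the maturation mutants, 88.4 in prg-1, 1.77 in tost-1 and 30.8 in control. One of them, msp-152, had 2, 0 and 0 reads against 35 in prg-1 (pooled ratio 0.00991, 0.00116 to 0.0386; adjusted p = 0.00367). A list of 37 other sperm genes gave 10.6, 6.80 and 6.12 CPM on the sense strand against 58.5 in prg-1, and 9.34, 3.67 and 2.11 CPM on the antisense strand against 75.3; on both strands the prg-1 library was the highest of the 6. With TDP2 major sperm protein sums were 13.1, 4.16 and 1.41 RPM in the maturation mutants, 196 in prg-1 and 95.4 in control.

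**Figure D2:**
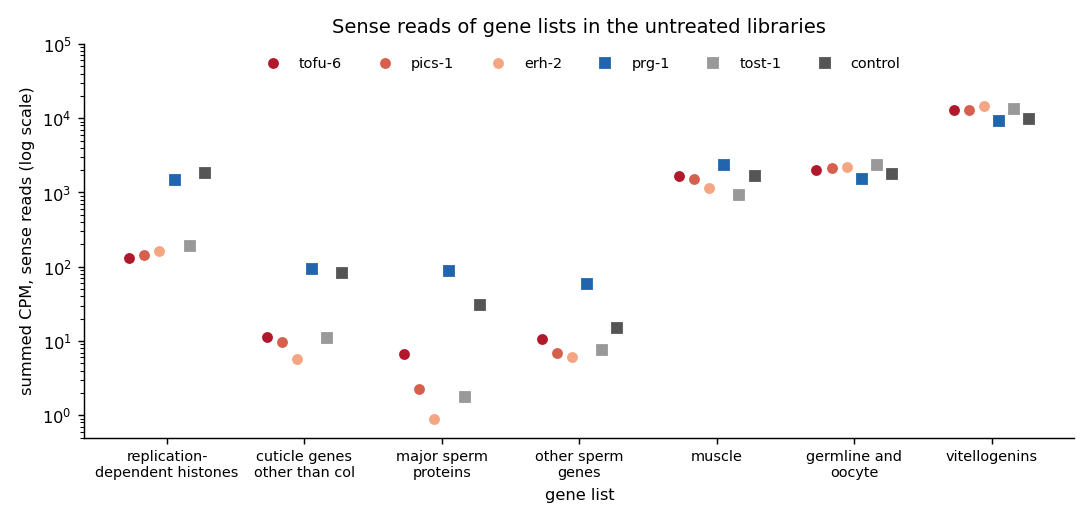
Summed sense level of each gene list (CPM, log axis) in the 6 untreated libraries, circles for the maturation mutants and squares for prg-1, tost-1 and control. Histone sums are 133 to 164 CPM in the maturation mutants, against 1470 in prg-1 and 1830 in control, and the list of cuticle genes other than col and both sperm lists are likewise higher in prg-1 and control than in the maturation mutants, while vitellogenins and germline genes lie close together.

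Markers of other tissues are given beside these groups, since whole worms were used. Over all features tested 4.35% were called higher and 7.77% lower. Of 25 muscle genes tested, 3 fell (dim-1, myo-3 and unc-89, structural genes of the contractile apparatus), 0 rose and the median was −0.73, which turned to 0.20 under scaling to all assigned reads; their sums were 1650, 1520 and 1150 CPM in the maturation mutants, 2320 in prg-1, 938 in tost-1 and 1680 in control. With equal assigned reads none of those 3 calls held, and with microRNA scaling only that of dim-1 did. Of 13 intestine genes tested, 2 fell (the protease gene asp-1 and the actin gene act-5), 0 rose and the median was −0.51, which turned to 0.41 with equal assigned reads, where 3 rose and 0 fell; their sums were 359, 335 and 316 CPM in the maturation mutants, 502 in prg-1, 287 in tost-1 and 444 in control. Of 29 germline and oocyte genes, 4 rose (cey-2, pos-1, egg-1 and egg-2, all active in oocytes or early embryos) and the median was 0.46, with sums of 2010, 2160 and 2210 CPM against 1540 in prg-1. Of these 29, 16 had an unadjusted p under 0.05, DESeq2 called 2, 0 were called when scaled to microRNA reads and 27 were higher with equal assigned reads (median 1.38). Of 6 vitellogenin, 13 neuron and 4 early embryo genes, and of the 5 genes of the PICS complex, 0 were called in either direction by edgeR or DESeq2; at an unadjusted p under 0.05 the only one was 1 early embryo gene, lower. With equal assigned reads edgeR called all 6 vitellogenin genes (median 1.41) and 1 gene of each of the other 3 lists higher. Vitellogenin sums averaged 13600 ± 896 CPM in the maturation mutants (SD, n = 3) and 9200 CPM in prg-1. The part of stage or tissue make-up in the histone, cuticle, sperm and heat shock differences was not tested.

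Single features with few or no reads in the maturation mutants passed the filter only through prg-1, and their values are given as descriptions. F59B2.12 had 0, 0 and 0 sense reads in the maturation mutants against 40 in prg-1, with 0 in tost-1 and 11 in control, so that its level was at most 0.0407 of prg-1 with a floor of 3 reads in each library (edgeR, adjusted p = 0.00366). W03G9.9, which overlaps W03G9.5 on the other strand, had 1, 0 and 0 sense reads against 54, a pooled ratio of 0.00321 (0.00008 to 0.0187). On the antisense strand ncr-2, which overlaps the collagen gene col-91, had 1, 0 and 0 reads against 51, msrp-1 had 3, 1 and 0 against 53 and K09G1.2 had 0, 1 and 0 against 32. The sperm gene ssp-31 had 3, 0 and 0 antisense reads against 60 and Y46H3D.1 had 3, 0 and 0 against 41; in both the few reads were all in tofu-6, and DESeq2's Wald test did not call them (adjusted p = 0.249 and 0.322). Except for msrp-1, with 0, control held reads at each of these features.

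**Figure D3:**
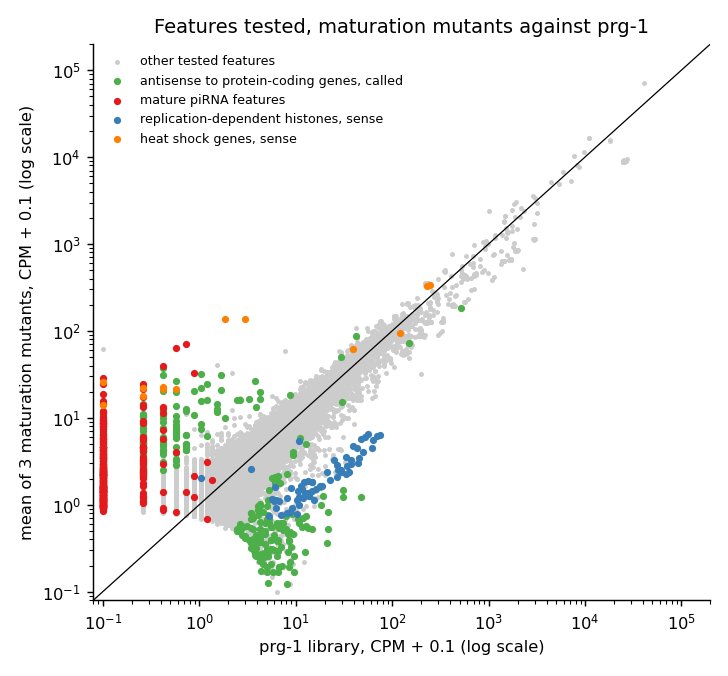
Level of every feature tested, as the mean of the 3 maturation mutants (vertical, CPM + 0.1) against prg-1 (horizontal, CPM + 0.1), both on log axes. Mature piRNAs, heat shock genes, histone genes and all called antisense features of protein-coding genes are coloured. Mature piRNAs and inducible heat shock genes lie above the diagonal and replication-dependent histones below it, with mature_piR-cel-4375 at 70.6 against 0.635 CPM.

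On the TMM scale most genes of the small RNA pathways themselves were not called. This rests on the scaling: with equal assigned reads 12 of 18 piRNA pathway genes, 13 of 18 other Argonaute genes, 19 of 24 mutator and polymerase genes and 28 of 29 chromosome segregation genes were called higher. With TMM 4.35% of all features tested rose and 7.77% fell, and single calls in lists of this size lie near those shares. Of 18 piRNA pathway genes tested on the sense strand 1 rose and 1 fell, with a median of 0.24, and DESeq2 called 0. The riser was ife-3, a cap-binding factor (adjusted p = 0.0497), and the call was lost in several alternatives. The one that fell was parn-1, the exonuclease that trims the 3′ ends of piRNAs: it had 24, 20 and 18 sense reads in the maturation mutants and 40 in prg-1 (−1.87 ± 0.37, adjusted p = 0.0158). That call was lost with DESeq2 (adjusted p = 0.0568) and with equal assigned reads (0.0782). Its antisense reads numbered 96, 67 and 27 against 7 in prg-1, 11 in tost-1 and 10 in control (2.17 ± 0.62, adjusted p = 0.0575). Among 18 other Argonaute genes tested, wago-4, required for inheritance of RNA interference, rose, with 581, 569 and 410 sense reads in the maturation mutants against 159 in prg-1 (0.78 ± 0.19, adjusted p = 0.0338). The wago-4 call was lost with DESeq2 (adjusted p = 0.107), when scaled to microRNA reads (0.222) and without tofu-6 (0.0659). The Argonaute genes of spermatogenesis passed the filter only through prg-1, so nothing is read from their calls: alg-4 had 3, 1 and 0 reads in the maturation mutants against 32 in prg-1, and alg-3 had 5, 4 and 0 against 21. Of 24 mutator and RNA-dependent RNA polymerase genes 1 rose, rde-2, with 114, 115 and 119 reads against 16 in prg-1 (1.96 ± 0.43, adjusted p = 0.0244). Of 29 chromosome segregation genes 1 rose, the cohesin gene smc-3, with 394, 313 and 215 reads against 98 (0.70 ± 0.19, adjusted p = 0.0465). DESeq2 called 0 of the 29, and the smc-3 call was also lost when scaled to microRNA reads (adjusted p = 0.296), with a stricter filter (0.0728) and without tofu-6 (0.113).

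MicroRNAs and tRNA fragments depended on the scaling. MicroRNAs took 9.09% to 13.5% of assigned reads in the maturation mutants, 6.05% in prg-1, 3.93% in tost-1 and 4.01% in control. On the TMM scale 14 of 138 microRNA genes fell, 0 rose and the median was −0.40, while with equal assigned reads 38 rose, 4 fell and the median was 0.53. tRNA genes took 25.2%, 25.5% and 30.8% of assigned reads against 39.3% in prg-1, and 174 of 513 fell on the TMM scale with a median of −0.68; with equal assigned reads 85 rose, 14 fell and the median was 0.24. No direction is drawn for either class.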

How the data were processed

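Small RNAs were sequenced from whole worms, and the 4 libraries compared here had 8363650 to 11777844 assigned reads. The authors deposited whole-number read counts for each transcript and piRNA, sense and antisense, with a table of the same counts by class. Reads were aligned with Bowtie2, per the submitters' processing notes. The version, build, counting tool and treatment of reads with several matches were not given in the sources used here, so members of families of near-identical copies are uncertain. The class table deposited for untreated tofu-6 held RPM (counts divided by 9884492 reads, against 9884312 outside rRNA); the 5 other untreated class tables equalled the summed counts in 26 of 26 values once 7 rRNA features were turned to the other strand. All values here come from the feature tables.

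Counts were summed per gene and strand. Of 45510 gene identifiers 44852 were found in the WBcel235 annotation, which gave names and coordinates; 229 genes fell in several classes. Opposite structural RNA genes were 419 ncRNA genes, with 92.1% to 98.8% of the antisense reads of their class. Their antisense reads were counted with structural RNA, and single features of that class are not described.

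Features with 10 reads in a library and 30 over the 4 were fitted with edgeR 4.0.16 (glmQLFit and glmQLFTest, TMM; R 4.3.3). The test was two-sided, with Benjamini-Hochberg adjustment at 0.05, the trended biological coefficient of variation had a median of 0.187 and the fit had 6.24 prior degrees of freedom. Log2 fold changes are maturation mutants over prg-1. On simulated counts for 11196 features the fit recovered 68.7% of 4-fold and 98.0% of 16-fold changes and called 7 of 10998 unchanged features. Every simulated library, prg-1 included, was given the spread estimated in the fit, and only features with an expected count of at least 10 were changed. The simulation therefore cannot show whether the lone prg-1 library varies more, or how changes at low counts fare. Levels of the untreated libraries are CPM on the TMM-adjusted size, chosen over the RPM first planned so that they share the scale of the fit; TDP2 levels are RPM. Shares and ratios carry exact (Clopper-Pearson) 95% intervals, which cover counting error only, as molecules were not counted. Python 3.11.15 and scipy 1.17.1 were used.

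The members, lists and tests were chosen with earlier results of these data known. Named features were the 6 mature piRNAs with most reads, the 10 largest rises and 10 largest falls outside piRNAs with at most 3 per gene family, the 2 most abundant members of each list on each strand, and the mutated genes; others are said to be chosen after their values were seen, or are members of a list described in full. Alternatives were other scalings, DESeq2 1.42.0, other filters, a fit to all 6 untreated libraries and leaving out each maturation mutant.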

Additional observations from a re-analysis of the deposited data

Results flagged for a closer look

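Small nuclear RNAs, taken as a share of assigned reads, stood the other way round in the 2 preparations. Reads sense to snRNA genes took 0.337%, 0.379% and 0.380% of assigned reads in untreated tofu-6, pics-1 and erh-2 and 0.235% in prg-1, so the mean of the maturation mutants was 1.56 times prg-1, with 0.302% in tost-1 and 0.240% in control. With TDP2 they took 5.71%, 6.58% and 16.3% in the maturation mutants, 21.8% in prg-1 and 5.65% in control, a ratio of 0.437. By that share every maturation mutant was above prg-1 without TDP2 and below it with TDP2; the difference between the preparations was not tested. The untreated direction rests on the scaling, since on the TMM scale the summed levels were 2730, 3130 and 3540 CPM in the maturation mutants and 3780 CPM in prg-1, with 0 of 79 snRNA genes called by edgeR (10 higher at an unadjusted p under 0.05, 1 higher by DESeq2).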

How the results depend on the processing

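The number of features higher in the maturation mutants was 507 and depended on the scaling: it was 856 when scaled to microRNA reads, 973 to reads outside structural RNA and 5527 to all assigned reads. It was 332 with DESeq2's Wald test, 276 with a stricter filter and 1349 with no filter, and 252 to 807 when 1 maturation mutant was left out. The number lower, 905, became 350 when scaled to all assigned reads and 1626 with no filter, and ranged from 531 (without tofu-6) to 1013 with 1 left out; 0 calls changed direction in any setting. The cause of these changes was not tested. The share of mature piRNAs, 88.4 times prg-1, was 178 times over features with 10 or more reads in control, 48.9 per microRNA read and 49.4 per read outside structural RNA. The ratio of precursor to mature reads, 0.0255 of prg-1, was 0.0127 over mature features with 10 or more reads in control; leaving out 1 mutant gave 0.0191 to 0.0295, and 73.5 to 107 for the share. Of 158 named features tested, 95 kept their direction and side of the threshold in every alternative. Scaling to all assigned reads reversed 12, given here with their log2 fold changes under that scaling. Of these asp-1 (0.12) was called lower with TMM and was not called under that scaling. The others were not called with TMM and were called higher under that scaling: dcr-1 (0.85), rde-12 (0.87), top-2 (0.90), hcp-1 (0.87), asp-3 (0.66), snb-1 (0.79), rpl-12 (0.74), rps-23 (0.85), mir-51 (0.91), F15H9.5 (0.71) and hsp-3 (0.55). No paired analysis was possible because each genotype has 1 library and the labels give no replicate numbers. Features at 0 in prg-1 have only a lower bound at this depth.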

Other observations

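Several genes outside the lists were looked up after the calls were seen, and their values are given as descriptions. Among cofactors of the Hsp70 and Hsp90 chaperones, hsp-110 had 1527, 1250 and 1104 sense reads in the maturation mutants, 349 in prg-1, 449 in tost-1 and 260 in control (log2 fold change 0.97 ± 0.22; edgeR, adjusted p = 0.0262; lost when scaled to microRNA reads, 0.128, and without tofu-6, 0.0806). Among genes of the moult cycle, the protease inhibitor gene mlt-11 had 18, 22 and 10 sense reads in the maturation mutants, 101 in prg-1, 14 in tost-1 and 119 in control.

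The gene eri-6, part of a helicase locus that is itself regulated by small RNAs, had 373, 262 and 140 antisense reads in the maturation mutants, 10 in prg-1, 58 in tost-1 and 30 in control (3.70 ± 0.44; edgeR, adjusted p = 0.00237). After TDP2 its antisense level was 322, 1450 and 504 RPM in the maturation mutants, 2.65 RPM in prg-1 and 761 RPM in control. Its partner eri-7 had 78, 71 and 68 sense reads in the maturation mutants and 10 in prg-1.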
